A study of Mus musculus with 8 samples.

Results

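The 49 genes described here encode the enzymes and transporters that carry glucose to lactate, into the pentose phosphate pathway and into the mitochondrial tricarboxylic acid (TCA) cycle. They were chosen by name from the 55418 genes listed in each count table, and all 49 passed the filter on low counts in all 6 comparisons. The list holds 21 glycolysis members from glucose uptake to lactate, 7 pentose phosphate enzymes, 5 members of pyruvate entry and 16 TCA cycle members. Glycolysis splits glucose to pyruvate in the cytosol, and lactate dehydrogenase turns pyruvate to lactate. The pentose phosphate pathway diverts glucose 6-phosphate to make NADPH and ribose, and pyruvate dehydrogenase passes carbon to the TCA cycle as acetyl-CoA. Mouse embryonic stem cells (ESCs) in serum and LIF are known for a high rate of glycolysis.

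RNA-seq of mRNA was made from E14 ESCs, a mouse line labelled as strain 12910la, in 8 libraries, 2 for each of 4 conditions. In the depleted cells a pSuper puro plasmid expressed an shRNA against Hira, Ubn1 or Ubn2, subunits of the HIRA complex, which deposits the histone variant H3.3. Control cells received the vector; their genotype is labelled wild type, and the methods name luciferase as the target of the control shRNA. All cells grew on gelatin in FBS with LIF, were transfected with 1000 ng of plasmid and, per the labels, met puromycin at 1 µg/ml from 24 h on, for 3 days. The cells were a selected pool and not clones, and which of the designed shRNAs was used for each gene is not given in the sources used here. Nothing states that the 2 libraries of a condition came from separate cultures, so the p-values measure only the spread between these libraries, which may be technical.

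Total counts lay between 19710040 and 32706053 per library, and 3 counts corresponded to between 0.0917 and 0.152 CPM (counts scaled to the library's normalized total), a floor that covers counting error only. Hira stood at 89.4 and 97.6 CPM in control, 10 and 10.4 in Hira depletion, 105.2 and 118.0 in Ubn1 depletion, and 108.7 and 104.6 in Ubn2 depletion. Ubn1 stood at 53 and 44.1 CPM in control, 68.8 and 67.2 in Hira depletion, 23.8 and 23.8 in Ubn1 depletion, and 42.7 and 40.3 in Ubn2 depletion, and Ubn2 stood at 50.1 and 51.7 CPM in control, 59.7 and 63.4 in Hira depletion, 56.9 and 51.2 in Ubn1 depletion, and 30.1 and 24.6 in Ubn2 depletion. Each targeted gene was lowest in both of its own libraries, with log2 fold changes of -3.22 for Hira, -1.03 for Ubn1 and -0.90 for Ubn2, so the depletions differed in depth. The 8 ESC markers were present in every library and summed to 6433 and 6646 CPM in control and to between 5386 and 5859 in the 6 depleted libraries, all below control. Of these markers Tdgf1 (-0.78) and Dppa5a (-0.59) were called lower in Ubn2 depletion and 0 in the others in edgeR, where 3, 2 and 3 were lower by adjusted p alone in Hira, Ubn1 and Ubn2 depletion. By the same rule 1, 0 and 1 were higher. By direction alone 4, 4 and 3 of the 8 were above control, so the markers did not fall as a set. Heart muscle markers summed to 370.0 and 248.2 CPM in Ubn2 depletion, where 9 of 10 were called higher and 1 lower, and to between 36.9 and 58.8 CPM in the other 6 libraries. In Hira and in Ubn1 depletion 6 of the 10 passed the filter. The rest entered the Ubn2 test through libraries where they were high, which favours their call. Markers of 2-cell-like cells summed to 6.67 and 3.14 CPM in control, 23 and 17.6 in Hira depletion, 13.1 and 14 in Ubn1 depletion, and 23.1 and 31.8 in Ubn2 depletion. Of the 8 on this list 5, 5 and 6 passed the filter in Hira, Ubn1 and Ubn2 depletion. At these low levels edgeR called 5, 3 and 6 of them higher and DESeq2 called 2, 1 and 4. Trophoblast markers summed to 141.5 and 114.5 CPM in Hira depletion and to between 61.4 and 73.5 in the other libraries. Of the 6 that passed the filter in Hira depletion 3 were called higher and 0 lower, beside 10.8% and 5.40% of all genes tested. The keratin Krt8 stood at 25.2 and 22.7 CPM in control and 56.5 and 48.2 in Hira depletion, and Krt18 at 13.9 and 12.3 and at 37.1 and 28.1. Tfap2c, at 23.9 and 26.8 in control, was at 32.1 and 21.2 there, so the list did not rise evenly. Mitochondrially encoded RNA summed to 13998 and 13780 CPM in Ubn2 depletion, 8242 in Ubn1 replicate 2 and between 9589 and 11766 in the other 5 libraries. The part of these lists in the changes of the members was not tested. In such bulk samples fewer cells of a type and less RNA per cell cannot be told apart.

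Promoter sequences are shown for 4 members with different patterns, chosen after their values were seen. Pgk1, for phosphoglycerate kinase, and Ldha, for lactate dehydrogenase A, were called lower in both Hira and Ubn2 depletion. Sdha, for the flavoprotein of succinate dehydrogenase, was called in Hira depletion, and Suclg2, for the GTP-specific beta subunit of succinyl-CoA synthetase, in Ubn1 depletion. Each sequence is the 250 bases before a RefSeq start site on GRCm38.p6, written 5′ to 3′ on the strand of the gene. Capitals mark ACGTG or GCGTG on either strand, the core letters bound by hypoxia-inducible factors. ACGTG overlaps the E-box CACGTG, which then counts on both strands.
Pgk1, chrX:106186850-106187099, plus strand: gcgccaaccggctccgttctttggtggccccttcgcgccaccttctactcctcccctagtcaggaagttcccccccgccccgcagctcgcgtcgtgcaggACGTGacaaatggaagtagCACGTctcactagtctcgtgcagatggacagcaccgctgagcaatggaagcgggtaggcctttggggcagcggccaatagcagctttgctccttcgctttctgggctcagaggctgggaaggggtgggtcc
Ldha, chr7:46845554-46845803, plus strand: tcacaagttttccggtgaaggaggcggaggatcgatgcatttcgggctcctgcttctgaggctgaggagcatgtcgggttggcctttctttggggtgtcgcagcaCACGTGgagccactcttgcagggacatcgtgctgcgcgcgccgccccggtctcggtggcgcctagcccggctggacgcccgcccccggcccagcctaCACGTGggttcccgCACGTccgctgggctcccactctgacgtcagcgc
Sdha, chr13:74350241-74350490, minus strand: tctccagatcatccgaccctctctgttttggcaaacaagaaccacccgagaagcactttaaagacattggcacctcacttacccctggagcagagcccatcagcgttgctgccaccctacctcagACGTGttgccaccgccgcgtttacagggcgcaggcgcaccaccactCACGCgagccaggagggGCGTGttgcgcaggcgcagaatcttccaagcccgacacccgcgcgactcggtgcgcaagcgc
Suclg2, chr6:95718847-95719096, minus strand: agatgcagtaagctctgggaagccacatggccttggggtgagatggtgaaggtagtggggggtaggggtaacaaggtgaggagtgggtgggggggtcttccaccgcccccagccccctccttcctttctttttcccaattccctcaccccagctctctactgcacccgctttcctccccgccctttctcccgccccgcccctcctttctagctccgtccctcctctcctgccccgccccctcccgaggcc

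In these windows Pgk1 held 2 matches to ACGTG, starting 150 and 131 bases before the start site. Ldha held 5 matches in 3 stretches, of which 2 were the E-box CACGTG. Sdha held 1 match to ACGTG and 2 to GCGTG, and neither was among the letters of the Suclg2 window. RefSeq windows that also take in the 50 bases after the start matched 45 of the 49 members, and a gene with several start sites had several windows. ACGTG was in a window of 11 of 19 glycolysis members (57.9%), 3 of 14 TCA cycle members (21.4%), 1 of 7 pentose phosphate members (14.3%) and 2 of 5 pyruvate entry members (40.0%). The share was 21.8% over all 27025 genes with a window and 28.4% over those tested in Ubn2 depletion. Counted by window, ACGTG was in 13 of 30 glycolysis windows (43.3%) and 8 of 19 TCA cycle windows (42.1%), so the difference between these groups was not seen on that count, against 19.6% of all 32851 windows and 24.6% of those of tested genes. GCGTG was in 12 of the 19 glycolysis members (63.2%) and 9 of the 14 TCA cycle members (64.3%). It was in 6 of the 7 pentose phosphate members (85.7%), the largest share, and 2 of the 5 pyruvate entry members (40.0%). The shares were 35.2% of all genes with a window and 54.1% of those tested. A match describes letters and not a bound site.

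Levels between genes were compared as CPM per kilobase of the longest principal transcript. In control ESCs the 14 highest members on this scale were all glycolysis members. Gapdh, for glyceraldehyde 3-phosphate dehydrogenase, stood at 5791 ± 314.2 CPM per kilobase (SD, n = 2), followed by Pkm, for pyruvate kinase, at 2789 ± 58.3. Eno1, for the common enolase, was at 2088 ± 36.6, Aldoa, for the main aldolase, at 1706 ± 36.4 and Ldha at 1339 ± 57.9 CPM per kilobase. Neighbours in this order differed by more than their SDs. The highest TCA cycle member was Mdh2, for mitochondrial malate dehydrogenase, at 230.0 ± 10.6, within the spread of Pfkp, for platelet-type phosphofructokinase, at 241.4 ± 9.28. The lowest members, Eno2, for the neuronal enolase, at 4.34 ± 0.294 and Rpia, for ribose 5-phosphate isomerase, at 4.29 ± 0.301 did not differ beyond their spread. Aldoa matched 2 annotated genes of that symbol, so its length is uncertain.

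Glycolysis members together took up 34319 and 35594 CPM in control, 24675 and 24546 in Hira depletion, 28805 and 34043 in Ubn1 depletion, and 21371 and 22693 in Ubn2 depletion. All depleted libraries lay below both control libraries, Ubn1 replicate 2 by the least. TCA cycle members summed to 2596 and 2622 CPM in control, 2317 and 2370 in Hira depletion, 2383 and 2640 in Ubn1 depletion, and 2400 and 2430 in Ubn2 depletion. The TCA sums of Ubn1 depletion thus lay on both sides of control. Pentose phosphate members summed to 1210 and 1264 CPM in control and to between 1033 and 1274 in the depleted libraries.

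Hira depletion was compared with control to ask which genes depend on Hira. The test throughout was the quasi-likelihood test of edgeR, with p-values adjusted by Benjamini-Hochberg over all genes tested, and a called gene had both an adjusted p below 0.05 and a change of more than 1.5-fold. By this rule 12 of 49 members were lower and 0 higher, where 5.40% of all 19035 genes tested were called lower and 10.8% higher. By adjusted p alone 31 members were lower and 3 higher, against 17.3% and 17.6% of all genes. At an unadjusted p under 0.05 there were 32 lower and 3 higher, and DESeq2 called 12 and 0. Of the 12 called members 11 belong to glycolysis, and 17 of the 21 glycolysis members were lower by adjusted p alone. The median log2 fold change was -0.61 for glycolysis, -0.09 for pentose phosphate, -0.12 for pyruvate entry and -0.22 for TCA cycle members, beside 0.01 over all genes.

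In Ubn2 depletion 14 of 49 members were called lower and 0 higher, where 8.75% of all 18219 genes tested were called lower and 9.59% higher. Adjusted p alone gave 32 lower and 2 higher, against 19.1% and 20.0% of all genes. At an unadjusted p under 0.05 there were 33 and 4, and DESeq2 called 14 and 0. Of the 21 glycolysis members 13 were called lower and 20 were lower by adjusted p alone, with a median log2 fold change of -0.75. The medians were -0.06 for pentose phosphate, -0.14 for pyruvate entry and -0.18 for TCA cycle members. Called lower in both Hira and Ubn2 depletion, which share the control libraries, were 9 members: Hk1, Pfkp, Aldoc, Tpi1, Pgk1, Eno1, Eno1b, Pkm and Ldha. The share of all genes called lower in both was not counted, so whether 9 of 49 exceeds it is not known.

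In Ubn1 depletion 1 of 49 members was called lower and 0 higher, where 1.56% of all 18373 genes tested were called lower and 1.53% higher. By adjusted p alone 9 were lower and 0 higher, against 3.62% and 4.14% of all genes. At an unadjusted p under 0.05 there were 12 and 0, and DESeq2 called 1 and 0. The 9 were Pfkp, Aldoc, Pgk1, Eno1, Eno1b, Eno2, Eno3, Idh3a and Suclg2. The median was -0.15 for glycolysis, -0.04 for pentose phosphate, -0.20 for pyruvate entry and -0.09 for TCA cycle members, so glycolysis was not the lowest group here. Without Ubn1 replicate 2, 4 members were called, with Aldoc (-0.66), Pgk1 (-0.67) and Eno2 (-0.87) added, and without control replicate 2 there were 2, with Pgk1 (-0.63) added.

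**Figure D1:**
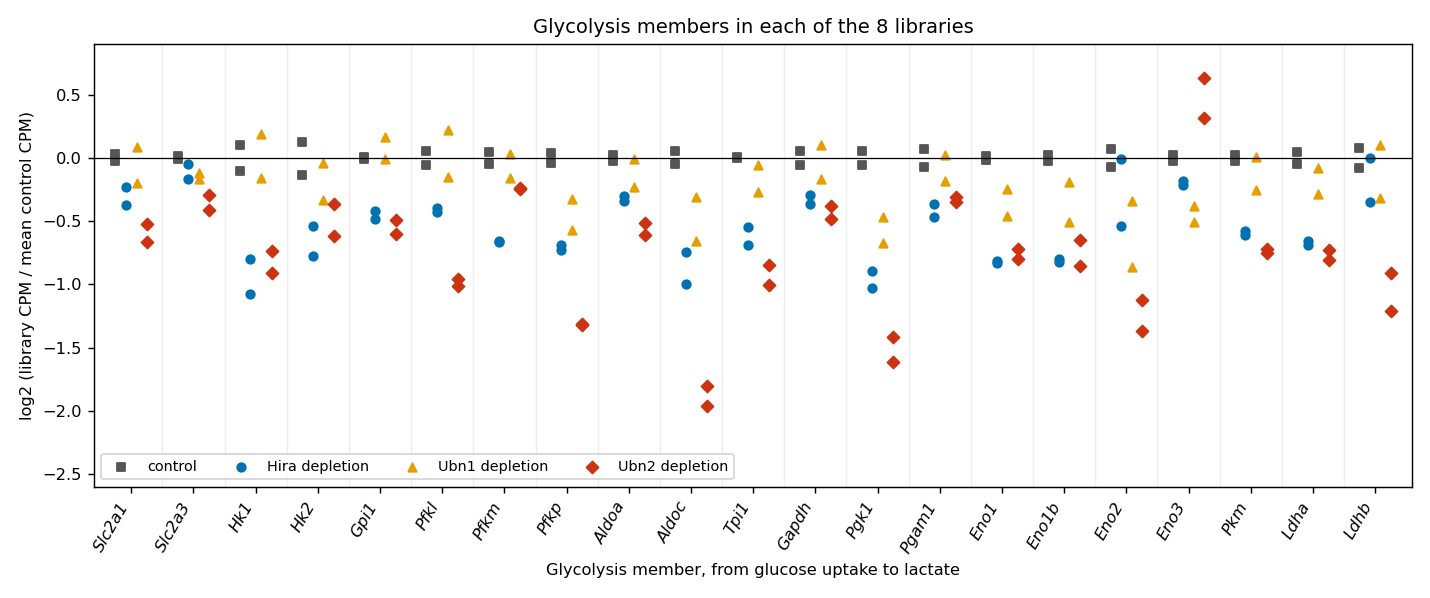
Each point is 1 library, with the log2 ratio of its CPM to the mean control CPM on the vertical axis and the 21 glycolysis members in pathway order on the horizontal axis. Points of Ubn2 depletion lie below both control points for 20 members and above them for Eno3. Of all 18219 genes tested in Ubn2 depletion, 12678 likewise did not overlap control. For Pgk1 and Pfkp the points of Ubn1 depletion lie between control and the other depletions.

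Glucose enters through transporters and is trapped by hexokinase. Slc2a1, for the transporter GLUT1, stood at 1222 and 1271 CPM in control, 1063 and 961.3 in Hira depletion, 1088 and 1321 in Ubn1 depletion, and 786.3 and 869.2 in Ubn2 depletion. The Ubn2-depleted libraries were lowest. Its log2 fold change over control was -0.32 ± 0.08 (adjusted p = 0.00286) in Hira and -0.59 ± 0.07 (adjusted p = 1.36e-06) in Ubn2 depletion, where the call was lost without control replicate 2 (-0.57) or Ubn2 replicate 1 (-0.52). Slc2a3, for the transporter GLUT3, stood at 1825 and 1852 CPM in control, 1776 and 1640 in Hira depletion, 1634 and 1689 in Ubn1 depletion, and 1385 and 1496 in Ubn2 depletion. Its Ubn2-depleted libraries lay below all others, at -0.35 ± 0.07 (adjusted p = 0.000232), while Hira depletion was at -0.12 ± 0.07 (adjusted p = 0.217).

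Hk1, for a hexokinase (GRCm38 chr10:62268855-62379908), stood at 132.4 and 152.8 CPM in control, 81.8 and 67.5 in Hira depletion, 128.0 and 162.3 in Ubn1 depletion, and 75.8 and 85.4 in Ubn2 depletion. Ubn1-depleted libraries spanned the control levels, and those of the other depletions lay below. Hk1 had a log2 fold change of -0.95 ± 0.09 (adjusted p = 1.74e-07) in Hira, 0.02 ± 0.10 (adjusted p = 0.933) in Ubn1 and -0.83 ± 0.08 (adjusted p = 6.21e-08) in Ubn2 depletion. Hk2, the inducible hexokinase, stood at 202.7 and 243.8 CPM in control, 130.6 and 153.9 in Hira depletion, 177.2 and 217.0 in Ubn1 depletion, and 173.7 and 145.8 in Ubn2 depletion. Hira and Ubn2 depletion lay below control and Ubn1 depletion overlapped it. Hk2 was called in Hira depletion at -0.67 ± 0.09 (adjusted p = 9.25e-06), a call lost without control replicate 2 (-0.53) or Hira replicate 1 (-0.56), and was at -0.48 ± 0.09 (adjusted p = 0.000162) in Ubn2 depletion. Gpi1, for the isomerase that makes fructose 6-phosphate, stood at 718.7 and 710.3 CPM in control, 533.8 and 510.6 in Hira depletion, 708.7 and 801.2 in Ubn1 depletion, and 469.9 and 508.5 in Ubn2 depletion. It was lower by adjusted p alone at -0.47 ± 0.07 (adjusted p = 4.62e-05) in Hira and -0.55 ± 0.07 (adjusted p = 3.66e-06) in Ubn2 depletion.

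Phosphofructokinase commits sugar to glycolysis. Pfkp (chr13:6579768-6648777) stood at 973.3 and 1028 CPM in control, 619.5 and 602.4 in Hira depletion, 673.0 and 798.5 in Ubn1 depletion, and 401.4 and 403.3 in Ubn2 depletion. No depleted library overlapped control, and Ubn2 depletion was lowest. The log2 fold changes were -0.73 ± 0.07 (adjusted p = 2.74e-07) in Hira, -0.45 ± 0.10 (adjusted p = 0.00284) in Ubn1 and -1.31 ± 0.07 (adjusted p = 1.42e-11) in Ubn2 depletion. Pfkl, the liver type, stood at 577.3 and 625.3 CPM in control, 447.6 and 456.9 in Hira depletion, 540.4 and 702.0 in Ubn1 depletion, and 297.7 and 310.2 in Ubn2 depletion. Ubn2 depletion lay far below the rest and Ubn1 depletion spanned control. Pfkl was called in Ubn2 depletion at -0.99 ± 0.07 (adjusted p = 1.34e-09) and was lower by adjusted p alone in Hira depletion at -0.43 ± 0.07 (adjusted p = 0.000142). Pfkm, the muscle type, stood at 48 and 51.5 CPM in control, 31.5 and 31.3 in Hira depletion, 44.6 and 50.8 in Ubn1 depletion, and 42 and 42.1 in Ubn2 depletion. Only Hira depletion was called, at -0.68 ± 0.09 (adjusted p = 1.19e-05), and Ubn2 depletion was at -0.24 ± 0.09 (adjusted p = 0.0332). Of the 100-base stretches in Pfkm transcripts 7.43% also occur in 1 other annotated gene.

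Aldolase splits the 6-carbon sugar. Aldoc (chr11:78322968-78327781), the form known from neural tissue, stood at 49.7 and 53.4 CPM in control, 30.7 and 25.8 in Hira depletion, 32.7 and 41.7 in Ubn1 depletion, and 13.2 and 14.8 in Ubn2 depletion. Ubn2-depleted libraries were lowest, and the other depletions lay between them and control. The log2 fold changes were -0.88 ± 0.10 (adjusted p = 1.66e-06), -0.47 ± 0.11 (adjusted p = 0.00737) and -1.89 ± 0.11 (adjusted p = 3.34e-11) in Hira, Ubn1 and Ubn2 depletion. Neuron markers summed to 407.4 and 407.0 CPM in control, 583.4 and 584.4 in Hira depletion, 421.1 and 444.5 in Ubn1 depletion, and 274.1 and 291.8 in Ubn2 depletion. They were thus highest in Hira depletion, where Aldoc was lower, and lowest in Ubn2 depletion; of the 8, 4 were called higher in Hira and 4 lower in Ubn2 depletion, and Dcx had no count in any library. Their part in the Aldoc and Eno2 values was not tested. Aldoa was lower by adjusted p alone, at -0.34 ± 0.07 (adjusted p = 0.00108) in Hira and -0.57 ± 0.06 (adjusted p = 5.29e-07) in Ubn2 depletion.

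Triosephosphate isomerase, glyceraldehyde 3-phosphate dehydrogenase and phosphoglycerate kinase carry the sugar to the first ATP. Tpi1 stood at 919.4 and 914.6 CPM in control, 627.2 and 568.9 in Hira depletion, 758.7 and 882.3 in Ubn1 depletion, and 457.4 and 508.8 in Ubn2 depletion. All depleted libraries lay below control. Tpi1 was called in Hira depletion at -0.63 ± 0.08 (adjusted p = 2.32e-06), a call lost without Hira replicate 2 (-0.57), and in Ubn2 depletion at -0.93 ± 0.07 (adjusted p = 3.83e-09).

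Gapdh (chr6:125161715-125166467) is the gene to which the RT-qPCR values of the study were normalized. It stood at 7907 and 8538 CPM in control, 6393 and 6725 in Hira depletion, 7308 and 8841 in Ubn1 depletion, and 5889 and 6325 in Ubn2 depletion. Hira- and Ubn2-depleted libraries lay below both control libraries, and those of Ubn1 depletion lay on either side of them. Its log2 fold change was -0.34 ± 0.07 (adjusted p = 0.00104), -0.03 ± 0.10 (adjusted p = 0.902) and -0.43 ± 0.06 (adjusted p = 3.37e-06) in Hira, Ubn1 and Ubn2 depletion, each under a fold of 1.5. Of its 100-base stretches 20.9% also occur among 84 other annotated genes.

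Pgk1 (chrX:106187100-106203699) had the lowest fold change of the members in Hira depletion. It stood at 2094 and 1931 CPM in control, 1084 and 987.1 in Hira depletion, 1264 and 1452 in Ubn1 depletion, and 657.3 and 754.6 in Ubn2 depletion. The 4 conditions did not overlap, with control highest and Ubn2 depletion lowest. Its log2 fold change was -0.97 ± 0.08 (adjusted p = 1.37e-08) in Hira, -0.57 ± 0.10 (adjusted p = 0.000166) in Ubn1 and -1.51 ± 0.08 (adjusted p = 5.11e-12) in Ubn2 depletion. Of its 100-base stretches 51.7% also occur in another gene, nearly all of them in the copy Pgk1-rs7, so reads could be split between the genes.

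Phosphoglycerate mutase and enolase lead to phosphoenolpyruvate. Pgam1, for the mutase, was lower by adjusted p alone at -0.43 ± 0.08 (adjusted p = 0.000168) in Hira and -0.33 ± 0.07 (adjusted p = 0.00110) in Ubn2 depletion, with 33.9% of its 100-base stretches in other genes. Eno1 stood at 4180 and 4285 CPM in control, 2411 and 2375 in Hira depletion, 3071 and 3567 in Ubn1 depletion, and 2433 and 2567 in Ubn2 depletion. Hira- and Ubn2-depleted libraries were lowest and Ubn1-depleted libraries lay between them and control. Its log2 fold changes were -0.84 ± 0.07 (adjusted p = 3.47e-08), -0.35 ± 0.10 (adjusted p = 0.0185) and -0.76 ± 0.06 (adjusted p = 3.25e-09) in Hira, Ubn1 and Ubn2 depletion. Eno1b, a copy of Eno1, stood at 848.7 and 877.7 CPM in control, 495.9 and 486.5 in Hira depletion, 608.2 and 755.2 in Ubn1 depletion, and 477.8 and 550.0 in Ubn2 depletion. It followed Eno1 at -0.83, -0.34 and -0.75, and since 63.6% of its 100-base stretches occur in Eno1, its reads cannot be told apart from those of Eno1 with certainty.

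Eno2 stood at 11.5 and 12.7 CPM in control, 12 and 8.35 in Hira depletion, 6.66 and 9.56 in Ubn1 depletion, and 4.69 and 5.56 in Ubn2 depletion. Ubn2-depleted libraries were lowest, and Hira-depleted libraries overlapped control. Eno2 had a log2 fold change of -0.26 ± 0.17 (adjusted p = 0.256) in Hira, -0.58 ± 0.18 (adjusted p = 0.0383) in Ubn1 and -1.25 ± 0.17 (adjusted p = 7.99e-06) in Ubn2 depletion. Eno3 (chr11:70657202-70662513), the muscle enolase, stood at 19.1 and 19.8 CPM in control, 17.1 and 16.8 in Hira depletion, 13.7 and 14.9 in Ubn1 depletion, and 30.1 and 24.2 in Ubn2 depletion. Ubn2 depletion was above all other libraries and Ubn1 depletion below them. Eno3 was the one glycolysis member that was higher in a depletion by adjusted p alone, at 0.48 ± 0.12 (adjusted p = 0.00322) in Ubn2 depletion. By direction alone 3 others were above control in Ubn1 depletion, by at most 0.08. Without Ubn2 replicate 2 Eno3 was at 0.63 in Ubn2 depletion, and it was lower in Ubn1 depletion at -0.44 ± 0.14 (adjusted p = 0.0415). The heart muscle marker sum was higher in Ubn2 replicate 1 than in replicate 2, and Csrp3 of that list had no count in control. Pgam2, the muscle mutase and no member, was named after its value was seen, at 1.17 (adjusted p = 0.000139) in Ubn2 depletion. Pfkm, the muscle phosphofructokinase, went the other way, at 48 and 51.5 CPM in control and 42 and 42.1 in Ubn2 depletion. The part of muscle markers in the Eno3 value was not tested.

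Pyruvate kinase makes pyruvate, and lactate dehydrogenase turns it to lactate. Pkm stood at 6682 and 6883 CPM in control, 4449 and 4551 in Hira depletion, 5699 and 6813 in Ubn1 depletion, and 4034 and 4117 in Ubn2 depletion. Ubn1 replicate 2 reached the control levels, replicate 1 did not, and the other depletions lay well below. The log2 fold change was -0.61 ± 0.07 (adjusted p = 1.72e-06) in Hira, -0.12 ± 0.10 (adjusted p = 0.508) in Ubn1 and -0.74 ± 0.05 (adjusted p = 1.25e-09) in Ubn2 depletion. Ldha (chr7:46841475-46855627) stood at 2293 and 2438 CPM in control, 1471 and 1498 in Hira depletion, 1937 and 2236 in Ubn1 depletion, and 1350 and 1428 in Ubn2 depletion. Hira and Ubn2 depletion were clear of control, and Ubn1 depletion lay closer below it. The log2 fold changes were -0.69 ± 0.07 (adjusted p = 5.13e-07), -0.18 ± 0.09 (adjusted p = 0.257) and -0.77 ± 0.07 (adjusted p = 1.18e-08). Ldhb (chr6:142490249-142507957), the subunit typical of oxidative tissue, stood at 470.1 and 421.1 CPM in control, 445.3 and 350.0 in Hira depletion, 357.4 and 478.3 in Ubn1 depletion, and 192.8 and 236.4 in Ubn2 depletion. Ubn2-depleted libraries alone were clear of control. The log2 fold change was -1.05 ± 0.09 (adjusted p = 6.7e-09) in Ubn2 and -0.18 ± 0.09 (adjusted p = 0.149) in Hira depletion.

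Where a step has several isoforms, their shares were taken from CPM per kilobase, as a description. Pfkm held 4.11% ± 0.020 (SD, n = 2) of the phosphofructokinase CPM in control, 3.90% ± 0.0035 in Hira, 4.61% ± 0.26 in Ubn1 and 7.56% ± 0.095 in Ubn2 depletion. Its share was highest in Ubn2 depletion, where Pfkl and Pfkp were called lower. Ldhb held 20.3% ± 2.0 of lactate dehydrogenase in control, 26.6% ± 3.6 in Hira, 21.2% ± 1.8 in Ubn1 and 17.3% ± 1.5 in Ubn2 depletion, and both Hira-depleted libraries were above the other 6. Suclg2 held 51.7% ± 1.8 of the succinyl-CoA synthetase beta subunits in control and 39.5% ± 2.5 in Ubn1 depletion, against 52.9% ± 2.8 and 51.5% ± 0.12 in Hira and Ubn2 depletion. Hk1 held 47.8% ± 0.73 of hexokinase in control, with 47.3% and 38.6% in the Hira-depleted libraries and 38.4% and 45.6% in those of Ubn2 depletion, a wide spread. Slc2a1 held 45.2% ± 0.42 of the transporters in control, 41.8% ± 0.37 in Hira and 41.1% ± 0.40 in Ubn2 depletion. Aldoc was 1.07% ± 0.032 of aldolase in control and 0.433% ± 0.014 in Ubn2 depletion, and Eno3 was 0.480% ± 0.0030 of enolase in control, 0.738% ± 0.0014 in Hira, 0.453% ± 0.025 in Ubn1 and 1.13% ± 0.23 in Ubn2 depletion. The Eno3 share was thus above control in both Hira and Ubn2 depletion, though Eno3 itself was not higher in Hira depletion.

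**Figure D2:**
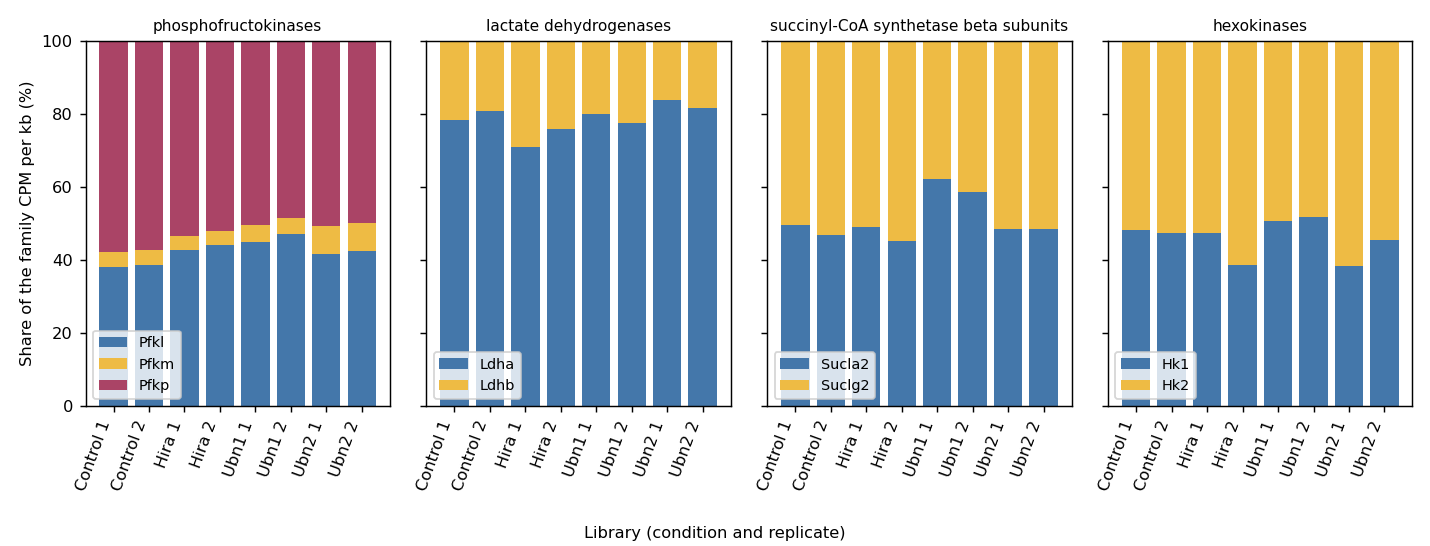
Stacked bars give the share of each isoform in the CPM per kilobase of its family, in percent, for each of the 8 libraries. The Pfkm band is widest in the Ubn2-depleted libraries (7.63% and 7.50%), and the Suclg2 band is narrowest in the Ubn1-depleted libraries (37.8% and 41.3%).

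Among pentose phosphate members 0 were called in any depletion in edgeR and in DESeq2, and at an unadjusted p under 0.05 there were 4, 0 and 5 in Hira, Ubn1 and Ubn2 depletion. Of all genes tested edgeR called between 1.53% and 10.8% in a direction. With 7 members, 0 calls therefore does not show that the group was spared. G6pdx, for the first enzyme of the oxidative branch, stood at 87 and 89.5 CPM in control, 98.6 and 110.6 in Hira depletion, 86.6 and 86.3 in Ubn1 depletion, and 85.2 and 83.7 in Ubn2 depletion. Hira depletion was above the other 6 libraries. The log2 fold change was 0.23 ± 0.08 (adjusted p = 0.0311) in Hira and -0.06 ± 0.07 (adjusted p = 0.506) in Ubn2 depletion. Pgls, for the lactonase that follows, stood at 110.8 and 115.4 CPM in control, 80.9 and 87.9 in Hira depletion, 90.6 and 114.5 in Ubn1 depletion, and 90.4 and 101.0 in Ubn2 depletion. It was lower by adjusted p alone at -0.44 ± 0.08 (adjusted p = 0.000163) in Hira and -0.24 ± 0.07 (adjusted p = 0.0114) in Ubn2 depletion, and 17.3% of its 100-base stretches also occur in Fam129c. Pgd, for the enzyme that makes the next NADPH, stood at 174.7 and 181.0 CPM in control, 159.6 and 179.9 in Hira depletion, 186.5 and 202.7 in Ubn1 depletion, and 208.2 and 203.3 in Ubn2 depletion. Ubn2 depletion was highest, at 0.21 ± 0.07 (adjusted p = 0.0178).

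In the non-oxidative branch Tkt, for transketolase, stood at 578.1 and 592.4 CPM in control, 459.3 and 493.8 in Hira depletion, 523.4 and 601.1 in Ubn1 depletion, and 430.1 and 443.2 in Ubn2 depletion. Hira and Ubn2 depletion lay below control and Ubn1 depletion spanned it. Tkt was lower by adjusted p alone at -0.31 ± 0.07 (adjusted p = 0.00238) in Hira and -0.42 ± 0.07 (adjusted p = 5.94e-05) in Ubn2 depletion. Rpia stood at 8.23 and 7.45 CPM in control, 8.48 and 9.3 in Hira depletion, 8.71 and 9.29 in Ubn1 depletion, and 6.99 and 8.16 in Ubn2 depletion. It passed the test in no depletion, and neither did Rpe, for ribulose phosphate epimerase. Taldo1, for transaldolase, was lower by adjusted p alone in Hira depletion at -0.22 ± 0.08 (adjusted p = 0.0362) and was at -0.19 ± 0.08 (adjusted p = 0.0577) in Ubn2 depletion.

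Pyruvate dehydrogenase stands between glycolysis and the TCA cycle. No pyruvate entry member was called by edgeR or DESeq2, with 2, 3 and 2 at an unadjusted p under 0.05 in Hira, Ubn1 and Ubn2 depletion. Beside the 1.53% to 10.8% of all genes that edgeR called in a direction, 0 of 5 members does not set this group apart. Pdha1, for the catalytic alpha subunit, stood at 262.5 and 251.5 CPM in control, 225.0 and 225.5 in Hira depletion, 208.3 and 225.7 in Ubn1 depletion, and 204.6 and 194.3 in Ubn2 depletion. All depleted libraries lay below control. The log2 fold changes were -0.21 ± 0.07 (adjusted p = 0.0329), -0.25 ± 0.09 (adjusted p = 0.0931) and -0.37 ± 0.07 (adjusted p = 0.000256) in Hira, Ubn1 and Ubn2 depletion. Dld, for the dihydrolipoamide dehydrogenase that several complexes share, stood at 89.8 and 84.1 CPM in control, 72.4 and 72.9 in Hira depletion, 79 and 72.6 in Ubn1 depletion, and 72.5 and 73.9 in Ubn2 depletion. It was lower by adjusted p alone at -0.27 ± 0.08 (adjusted p = 0.00990) in Hira and -0.25 ± 0.07 (adjusted p = 0.0115) in Ubn2 depletion. Pdhb, for the beta subunit, stood at 177.0 and 173.3 CPM in control, 164.7 and 162.1 in Hira depletion, 147.0 and 145.5 in Ubn1 depletion, and 161.4 and 161.1 in Ubn2 depletion. Dlat, for the acetyltransferase subunit, stood at 77.2 and 81.3 CPM in control, 77.5 and 74.7 in Hira depletion, 74.7 and 66 in Ubn1 depletion, and 74.1 and 72.7 in Ubn2 depletion. Pcx, for pyruvate carboxylase, stood at 72.3 and 79.2 CPM in control, 71.5 and 74.7 in Hira depletion, 70.2 and 83.8 in Ubn1 depletion, and 67.3 and 70.4 in Ubn2 depletion. These 3 passed the test in no depletion, with log2 fold changes between -0.26, of Pdhb in Ubn1 depletion, and 0.02, of Pcx in the same comparison.

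Of the 16 TCA cycle members 1 was called lower in each depletion, a different one each time. Among all genes tested 5.40%, 1.56% and 8.75% were called lower in Hira, Ubn1 and Ubn2 depletion, so such a count is not particular to this group. Sdha (chr13:74322254-74350280) stood at 264.2 and 262.8 CPM in control, 166.1 and 168.1 in Hira depletion, 253.5 and 268.4 in Ubn1 depletion, and 246.0 and 233.7 in Ubn2 depletion. Hira-depleted libraries stood apart below the other 6. Sdha had a log2 fold change of -0.67 ± 0.07 (adjusted p = 6.26e-07) in Hira, -0.02 ± 0.09 (adjusted p = 0.945) in Ubn1 and -0.14 ± 0.07 (adjusted p = 0.124) in Ubn2 depletion. Sdhb, for the iron-sulfur subunit of the same complex, was at -0.21 ± 0.08 (adjusted p = 0.0387) in Hira and -0.39 ± 0.07 (adjusted p = 0.000165) in Ubn2 depletion. Sdhc, for a membrane anchor, was at -0.31 ± 0.08 (adjusted p = 0.00287) and -0.22 ± 0.07 (adjusted p = 0.0142), and Sdhd, for the other anchor, passed the test in none.

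Suclg2 (chr6:95473009-95718800) was the member called in Ubn1 depletion. It stood at 107.4 and 120.9 CPM in control, 95.3 and 101.5 in Hira depletion, 62.3 and 65.3 in Ubn1 depletion, and 94.1 and 90.5 in Ubn2 depletion. Ubn1-depleted libraries were lowest, and those of the other depletions lay between them and control. The log2 fold change was -0.84 ± 0.10 (adjusted p = 5.39e-07) in Ubn1, -0.23 ± 0.08 (adjusted p = 0.0275) in Hira and -0.31 ± 0.07 (adjusted p = 0.00205) in Ubn2 depletion, and the call held without each of the 4 libraries in turn. Of its 100-base stretches 8.60% also occur in 1 other annotated gene. Sucla2, for the ATP-specific beta subunit, was at -0.12 ± 0.10 (adjusted p = 0.501) in Ubn1 depletion, and Suclg1, for the alpha subunit that both share, was at -0.11 ± 0.10 (adjusted p = 0.577).

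Fh1 (chr1:175600374-175625635), for fumarase, stood at 154.6 and 147.3 CPM in control, 118.5 and 110.8 in Hira depletion, 120.3 and 145.8 in Ubn1 depletion, and 99.4 and 100 in Ubn2 depletion. All depleted libraries lay below control, Ubn1 replicate 2 narrowly. It was called in Ubn2 depletion at -0.60 ± 0.07 (adjusted p = 4.48e-07), a call lost without control replicate 1 (-0.57), and was lower by adjusted p alone in Hira depletion at -0.41 ± 0.08 (adjusted p = 0.000276). Idh3a, for the catalytic subunit of the NAD-dependent isocitrate dehydrogenase, stood at 152.2 and 150.3 CPM in control, 109.3 and 115.9 in Hira depletion, 115.3 and 126.0 in Ubn1 depletion, and 109.3 and 110.0 in Ubn2 depletion. No depleted library overlapped control. It was lower by adjusted p alone at -0.44 ± 0.07 (adjusted p = 0.000107), -0.33 ± 0.09 (adjusted p = 0.0241) and -0.46 ± 0.06 (adjusted p = 8.53e-06) in Hira, Ubn1 and Ubn2 depletion. Idh3b, for a further subunit, was at -0.37 and -0.37 in Hira and Ubn2 depletion, and Idh3g at -0.45 ± 0.08 (adjusted p = 0.000171) and 0.05 ± 0.07 (adjusted p = 0.563).

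Ogdh, for the oxoglutarate dehydrogenase subunit, stood at 162.8 and 166.6 CPM in control, 192.5 and 207.7 in Hira depletion, 170.0 and 194.7 in Ubn1 depletion, and 173.2 and 172.5 in Ubn2 depletion. Hira depletion replicate 2 was highest, and replicate 1 lay between the Ubn1-depleted libraries. Ogdh was higher by adjusted p alone in Hira depletion at 0.26 ± 0.07 (adjusted p = 0.00905). Idh2, for the mitochondrial NADP-dependent isocitrate dehydrogenase, was likewise higher there at 0.21 ± 0.08 (adjusted p = 0.0347). Mdh2 stood at 323.9 and 345.8 CPM in control, 285.9 and 312.6 in Hira depletion, 348.0 and 384.8 in Ubn1 depletion, and 365.1 and 385.1 in Ubn2 depletion. It was at -0.18 ± 0.08 (adjusted p = 0.0720) in Hira and 0.16 ± 0.07 (adjusted p = 0.0773) in Ubn2 depletion, and Cs, for citrate synthase, and Dlst, for the succinyltransferase of the oxoglutarate complex, also passed the test in no depletion.

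**Figure D3:**
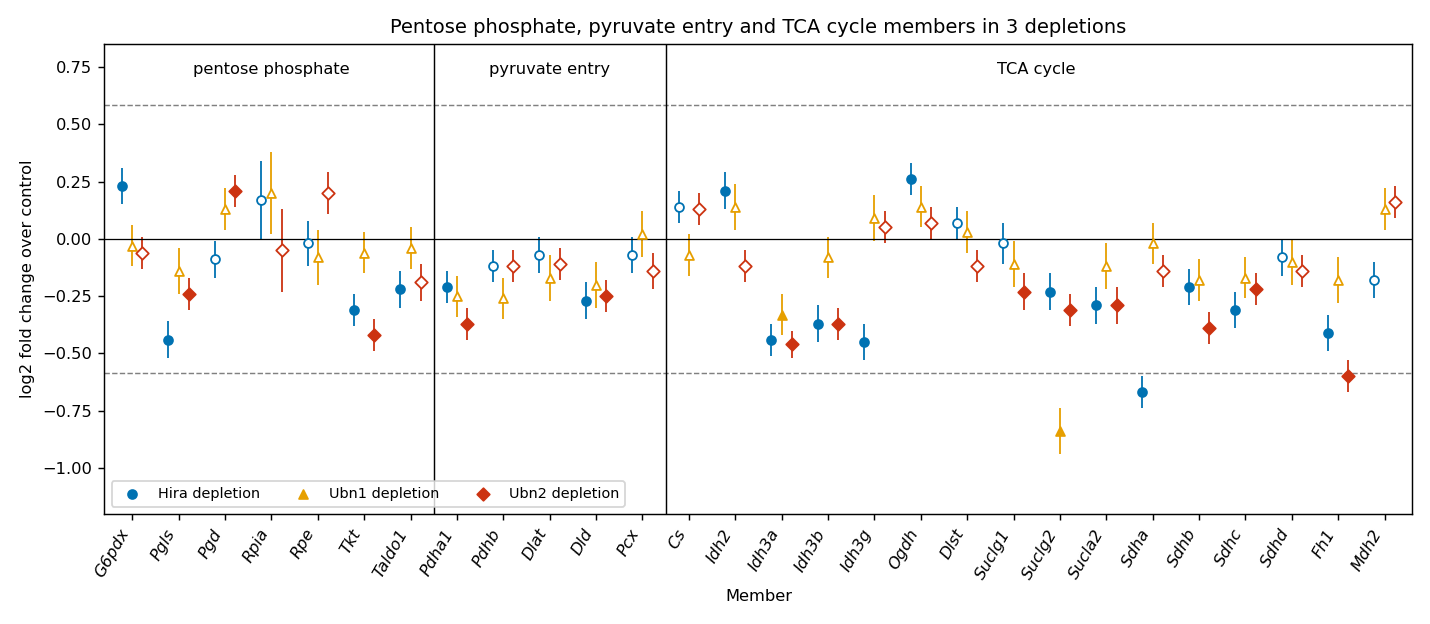
The vertical axis gives the log2 fold change over control with its standard error for the 28 pentose phosphate, pyruvate entry and TCA cycle members in 3 depletions; filled symbols passed an adjusted p under 0.05 and dashed lines mark a fold of 1.5. Suclg2 in Ubn1 depletion (-0.84), Sdha in Hira depletion (-0.67) and Fh1 in Ubn2 depletion (-0.60) are the lowest points.

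Hira and Ubn2 depletion were then compared with each other, without control libraries. Of 49 members 4 were called higher in Hira depletion and 1 lower, where 12.0% of all 18563 genes tested were called higher and 5.61% lower. By adjusted p alone 16 were higher and 6 lower, against 18.6% and 17.2% of all genes. Aldoc was higher in Hira depletion by a log2 fold change of 1.03 ± 0.13 (adjusted p = 3.27e-05), Eno2 by 1.01 ± 0.21 (adjusted p = 0.00163), Ldhb by 0.90 ± 0.11 (adjusted p = 3.57e-05) and Pfkp by 0.61 ± 0.08 (adjusted p = 3.55e-05). Eno3 was lower in Hira depletion at -0.67 ± 0.13 (adjusted p = 0.000805), a call lost without Ubn2 replicate 1, which leaves 0 called lower. By adjusted p alone Pfkl (0.58) and Pgk1 (0.56) were higher in Hira depletion, and Sdha, at -0.51 ± 0.07 (adjusted p = 9.69e-05), Idh3g, at -0.48 ± 0.08 (adjusted p = 0.000274), and Pfkm, at -0.41 ± 0.09 (adjusted p = 0.00285), were lower. For Hk1, Eno1, Pkm, Ldha and Gapdh the difference, between -0.10 and 0.15, did not pass the test.

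**Figure D4:**
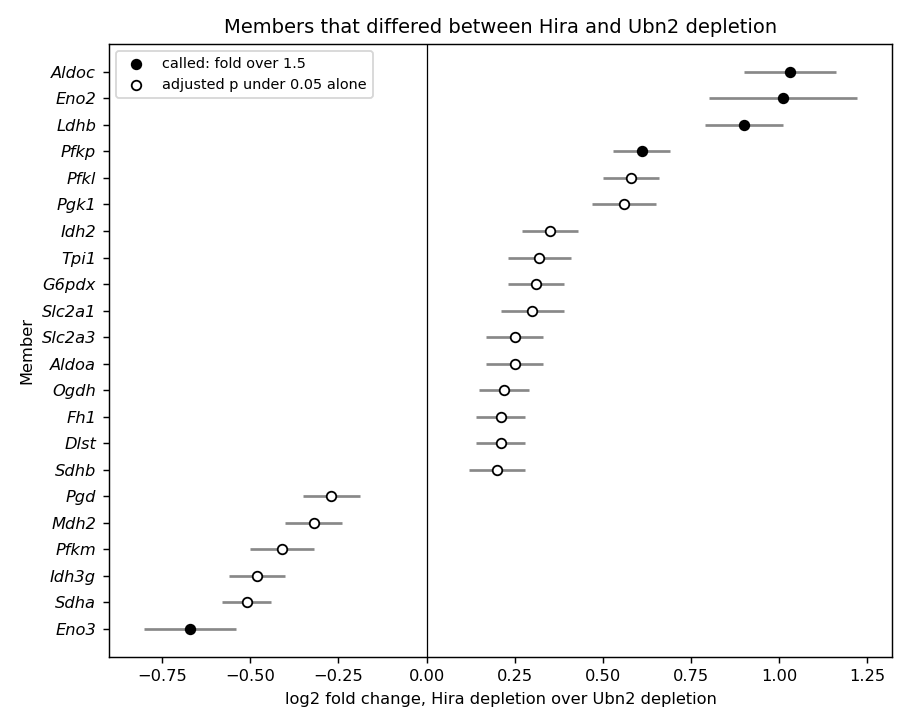
The horizontal axis gives the log2 fold change of Hira over Ubn2 depletion with its standard error for the 22 members that passed an adjusted p under 0.05; filled points also passed a fold of 1.5. Aldoc, Eno2, Ldhb and Pfkp are the filled points on the right, and Eno3, at -0.67, is the one on the left.

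Against Ubn1 depletion, 1 member was called higher in Hira depletion and 3 lower, where 9.52% of all 18819 genes tested were called higher and 3.16% lower. By adjusted p alone 2 were higher and 16 lower, against 14.2% and 10.2% of all genes. Suclg2 was called higher at 0.63 ± 0.10 (adjusted p = 3.08e-05). Called lower were Hk1 at -0.95 ± 0.11 (adjusted p = 7.56e-07), Sdha at -0.63 ± 0.10 (adjusted p = 2.97e-05) and Pfkm at -0.59 ± 0.11 (adjusted p = 0.000260). The count called lower was 11 without Ubn1 replicate 1, 5 without Hira replicate 2 and 2 without Ubn1 replicate 2. The count called higher was 0 without Hira replicate 2 or Ubn1 replicate 1 and 2 without Ubn1 replicate 2.

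Ubn2 depletion had 11 members called lower than Ubn1 depletion and 1 higher, where 4.09% of all 18205 genes tested were called lower and 4.61% higher. Adjusted p alone gave 19 lower and 2 higher, against 7.98% and 8.60% of all genes. The 11 were the glycolysis members Hk1, Gpi1, Pfkl, Pfkp, Aldoc, Tpi1, Pgk1, Eno2, Pkm, Ldha and Ldhb. Aldoc differed most, at -1.42 ± 0.14 (adjusted p = 2.7e-06), followed by Pfkl at -1.03 ± 0.11 (adjusted p = 1.07e-05). Eno3 was called higher in Ubn2 depletion at 0.92 ± 0.14 (adjusted p = 0.000180), and Suclg2 was higher by adjusted p alone at 0.53 ± 0.09 (adjusted p = 0.000509). Without Ubn1 replicate 2 the count called lower was 7.

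Further genes of these pathways that are no members were read from lists of isoforms, branches and regulators. Beside them, 5.40%, 1.56% and 8.75% of all genes tested were called lower in Hira, Ubn1 and Ubn2 depletion, and 10.8%, 1.53% and 9.59% higher. Of 27 further glycolysis genes, 7 were called lower and 1 higher in Ubn2 depletion, where 22 were tested. Of 23 tested in Hira depletion 1 was called lower, a call that DESeq2 did not make, and of 24 in Ubn1 depletion 0, with 3 lower and 3 higher at an unadjusted p under 0.05 and 0 called by DESeq2. Pgm1, for a phosphoglucomutase, stood at 136.7 and 150.2 CPM in control, 107.1 and 92.6 in Hira depletion, 99.3 and 122.0 in Ubn1 depletion, and 39.6 and 49.5 in Ubn2 depletion. Ubn2-depleted libraries were far below the others, at -1.69 (adjusted p = 1.08e-11). Slc16a3, for a lactate exporter, was called in Ubn2 depletion at -0.97 (adjusted p = 6.52e-10), and Pgm2, for another mutase, at -0.65 (adjusted p = 5.1e-05).

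Of 14 further pyruvate entry genes 3 were called lower in Hira and 1 in Ubn2 depletion, beside 5.40% and 8.75% of all genes tested. Pdk1, for a kinase that inhibits pyruvate dehydrogenase, was called in Hira depletion at -0.59 (adjusted p = 1.04e-05), and Pdk3, of the same family, at -0.73 (adjusted p = 5.08e-05). Pdp1, for a phosphatase that activates the enzyme, was called in Ubn2 depletion at -0.97 (adjusted p = 5.1e-05). Of 8 further pentose phosphate genes Shpk, for sedoheptulokinase, at 0.82 (adjusted p = 0.0134) and Tktl1, for a transketolase-like protein, at -1.61 (adjusted p = 0.0213) were called in Hira depletion, both at low levels and neither by DESeq2. Among all genes tested in Hira depletion 10.8% were called higher and 5.40% lower.

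Of 25 further genes around the TCA cycle 3 were called lower in Hira, 1 in Ubn1 and 4 in Ubn2 depletion, where 1 was called higher. Among all genes tested 5.40%, 1.56% and 8.75% were called lower, and 9.59% were called higher in Ubn2 depletion. Acly, for the enzyme that makes cytosolic acetyl-CoA from citrate, stood at 577.3 and 582.8 CPM in control, 202.5 and 216.4 in Hira depletion, 584.5 and 638.1 in Ubn1 depletion, and 533.7 and 498.0 in Ubn2 depletion. It was low in Hira depletion alone, at -1.49 (adjusted p = 2.41e-11), and lower there than in Ubn2 depletion at -1.29 (adjusted p = 6.55e-08). Pck2, for mitochondrial phosphoenolpyruvate carboxykinase, was called lower in all 3 depletions, at -0.86, -0.77 and -1.10. Idh1, for the cytosolic isocitrate dehydrogenase, was called in Ubn2 depletion at -0.64 (adjusted p = 9.65e-07), and Slc25a10, for the dicarboxylate carrier, was called higher there at 1.14 (adjusted p = 6.11e-06).

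The glycolysis members were set beside 34 hypoxia targets that are no members, 6 of them also among the pathway genes above. Of the 34, 14 were called lower in Hira, 8 in Ubn1 and 26 in Ubn2 depletion, beside 5.40%, 1.56% and 8.75% of all genes tested, with medians of -0.40, -0.30 and -1.04. DESeq2 called 9, 6 and 25 of them. Bnip3, for a mitophagy receptor, was called in all 3 depletions at -1.10, -0.79 and -2.01. Between Hira and Ubn2 depletion 19 of the 34 were called higher in Hira depletion, with a median of 0.66, and 12 were called by DESeq2, beside 4 of 21 glycolysis members with a median of 0.15 and 12.0% of all genes tested. Of 72 nuclear genes of the respiratory chain, 51 were lower by adjusted p alone in Hira, 3 in Ubn1 and 27 in Ubn2 depletion, beside 17.3%, 3.62% and 19.1% of all genes tested, with medians of -0.32, -0.10 and -0.13. In Hira depletion 7 of them were called, among them Ndufa2 at -0.85 (adjusted p = 5.13e-07) and Ndufb10 at -0.77 (adjusted p = 4.88e-07), for subunits of complex I.

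**Figure D5:**
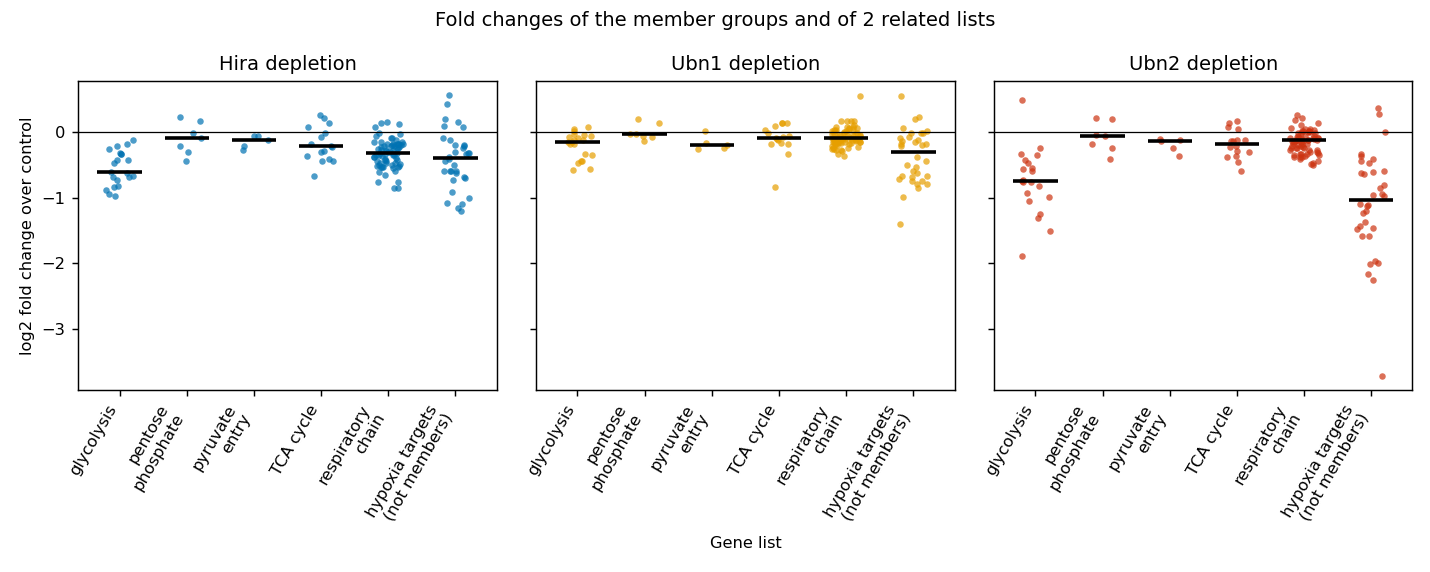
Each point is 1 gene, with its log2 fold change over control on the vertical axis and its list on the horizontal axis, spread sideways at random; black bars are list medians. The glycolysis bar lies at -0.61 in Hira, -0.15 in Ubn1 and -0.75 in Ubn2 depletion, and the bars of the other member groups lie between -0.22 and -0.04 in all 3.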

How the data were processed

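The authors deposited raw counts per gene for 8 libraries, without normalization, in 3 tables with the same control values. Per the labels, the authors used Trim Galore, STAR and featureCounts with GRCm38; versions, the strand setting and the treatment of reads with several matches are not given in the sources used here. The members and lists were chosen with earlier results of these data known.

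Each pair of conditions was fitted on its 4 libraries with edgeR 4.0.16 in R 4.3.3 (TMM, filterByExpr, quasi-likelihood test, Benjamini-Hochberg adjustment over all genes tested). A standard error is the log2 fold change divided by the square root of F. CPM use TMM factors over all 8 libraries. The fits were tested on simulated counts.

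Members named with every library are Gapdh, those with the smallest adjusted p (5 in glycolysis, 2 in other groups) or an extreme fold change in a group and depletion, and those called in Ubn1 or in both other depletions; isoform families were always described. Of other lists, up to 4 called genes with the smallest adjusted p qualified, of which 1 is not reported here. Pgam2, Hif1a, Epas1 and the members named to complete an enzyme were chosen after their values were seen. Alternatives were DESeq2 1.42.0, its size factors, other filters, 1 fit of all libraries, a replicate block, leaving out each library, and shares not divided by length. Sequences came from RefSeq (GRCm38.p6), positions and lengths from GENCODE M21 (GRCm38), and 100-base stretches of member transcripts were sought in transcripts of other genes.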

Additional observations from a re-analysis of the deposited data

How the results depend on the processing

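Of 1650 recomputed log2 fold changes 1632 kept their side of the call limits, 6 lost a call and 12 gained one. With an adjusted p under 0.05 in the main or the other fit, 0 changed direction. Values that passed the test in neither fit could change sign. Hk1 in Ubn1 depletion, for example, ranged from -0.16 to 0.17 with 1 library left out. All 12, 1 and 14 members called in Hira, Ubn1 and Ubn2 depletion stayed called with DESeq2, its size factors, other filters and 1 fit of all libraries. DESeq2's Wald test called 136 genes lower and 159 higher in Ubn1 depletion (edgeR 286 and 282), 1073 higher in Hira than Ubn1 depletion (1791), and 484 lower and 538 higher in Ubn2 than Ubn1 depletion (744 and 840); the cause was not tested. With the replicate block 2 members were called lower in Ubn1 depletion, Eno2 (-0.59) being added; the numbers were not shown to pair the libraries, whose deviations correlated between -0.0985 and 0.0978. Leaving out 1 library at a time, which assumes that a lone library varies like the others, gave 1 to 4 members called lower in Ubn1 depletion, 178 to 374 of all genes called lower and 172 to 319 higher there, and a members' median of -0.19 to -0.04. It gave 0 to 1 members called higher in Ubn2 depletion, 0 to 1 lower in Hira than Ubn2 depletion, 2 to 11 lower and 0 to 2 higher in Hira than Ubn1 depletion with a median of -0.28 to -0.10, and 7 to 12 lower in Ubn2 than Ubn1 depletion. Not divided by length, the control shares of Slc2a1, Hk1, Pfkl, Aldoa, Eno1, Ldha and Sucla2 were 40.4%, 39.0%, 36.4%, 98.0%, 82.5%, 84.1% and 38.2%; the division itself makes this difference. With 2 libraries a group an exact permutation test cannot go below p = 0.333, so the p-values rest on the spread that edgeR shares across genes. Members with near-identical copies are uncertain because reads could be split.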

Other observations

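Fbp1, for fructose bisphosphatase, which runs a glycolytic step backwards in gluconeogenesis, stood at 0.341 and 0.409 CPM in control, 1.18 and 1.14 in Hira depletion, 1.19 and 1.31 in Ubn1 depletion, and 4 and 3.01 in Ubn2 depletion. All depleted libraries were above control, Ubn2 depletion the most, at low levels throughout. The log2 fold changes were 1.59 (adjusted p = 0.0139), 1.70 (adjusted p = 0.0303) and 3.19 (adjusted p = 9.95e-07) in Hira, Ubn1 and Ubn2 depletion by the quasi-likelihood test in edgeR. Of 6 gluconeogenesis genes, edgeR called 2, 1 and 1 higher in these depletions and DESeq2 called 1, 0 and 1. Among all genes tested edgeR called 10.8%, 1.53% and 9.59% higher. The second in Hira depletion was G6pc2, for a glucose 6-phosphatase, at 2.81 (adjusted p = 0.00137).

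Of 22 regulators 1 was called higher and 2 lower in Hira depletion, 0 and 1 in Ubn1 depletion, and 4 and 3 in Ubn2 depletion. Among all genes tested the shares called higher and lower were 10.8% and 5.40%, 1.53% and 1.56%, and 9.59% and 8.75%. Egln3, for an oxygen-sensing prolyl hydroxylase, was called lower in all 3, at -0.92, -0.75 and -1.47. Lin28a, for an RNA-binding protein of pluripotent cells, stood at 161.3 and 168.1 CPM in control, 133.9 and 159.2 in Hira depletion, 129.7 and 122.4 in Ubn1 depletion, and 72.4 and 73.9 in Ubn2 depletion. Ubn2 depletion was far below the rest, at -1.17 (adjusted p = 3.93e-11). Egln2, for another such hydroxylase, and Trp53, for p53, were called higher in Ubn2 depletion at 0.74 and 0.61. Hif1a and Epas1, for hypoxia-inducible factors and named after their values were seen, were at 0.29 (adjusted p = 0.00973) and 0.78 (adjusted p = 3.21e-06) in Ubn2 depletion.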
